A study of Mus musculus with 8 samples.

Results

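The regulators of mitochondrial biogenesis described here are 9 genes chosen by symbol, Ppargc1a, Ppargc1b, Esrra, Nrf1, Gabpa, Tfam, Tfb1m, Tfb2m and Polrmt, out of the 24639 gene entries of the count lists, and each of the 9 symbols was found once. They were followed in primary mouse mesangial cells (MMC), the contractile cells that hold the capillary loops of the glomerulus together, from WT C57BL/6J mice and from miR-379KO mice on the same strain. The miR-379KO mice are homozygous for a short deletion at miR-379 made with CRISPR-Cas9 nickase and trace back to founders from injected eggs, and the cells came from sieved glomeruli and were used after several passages in serum-containing medium, with no treatment labelled for any group. Total RNA and RNA recovered with AGO2 beads (AGO2-IP) were sequenced in 2 samples (A and B) per genotype, which makes 4 groups and 8 libraries. The study describes A and B of the AGO2-IP as independent samples, but the labels do not tie the letters to separate animals in either assay, so the p-values measure the spread between these samples. In such bulk samples, fewer cells of a type and less RNA per cell cannot be told apart.

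Mitochondria draw on 2 genomes, and nuclear genes set how much of the organelle a cell makes. The coactivators PGC-1α and PGC-1β bind no DNA of their own and work through nuclear transcription factors such as ERRα, NRF-1 and the ETS factor GABP, which drive genes of respiration and of mitochondrial gene expression. Among the genes under that control are those for the mitochondrial transcription machinery, in which TFAM packages and bends mitochondrial DNA, TFB2M opens the promoter and POLRMT is the RNA polymerase, while TFB1M methylates the small ribosomal RNA. AGO2, an Argonaute protein, holds the microRNA that guides it to a target transcript.

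miR-379-5p lies on the plus strand at chr12:109709065-109709085 in GRCm38.p6. Its mature sequence from RefSeq is shown because it is the microRNA the knockout mice lack, with the seed (bases 2 to 8) in capitals. The 3′-UTR annotation was searched for the seed match GTCTACC on the transcript strand only. A match occurred in 779 of 19536 genes with a 3′-UTR (3.99%) and in 2 of the 9 regulators, with 1 match each in Polrmt and Ppargc1b. The match in the 109-base 3′-UTR of Polrmt, at chr10:79736173-79736179 on the minus strand, is shown with the matched letters in capitals.
mmu-miR-379-5p: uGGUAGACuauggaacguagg
Polrmt site: tgaaagtttgtGTCTACCtatgccagccg
The other 7 regulators held no such match in the 3′-UTR used here, which says only that these letters are not in that sequence. Ppargc1a had none in 3931 bases and Tfam none in 3082 bases.

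The promoters of the regulators were searched, on both strands, for the motifs of the factors in the same set. Promoters were RefSeq windows of GRCm38.p6, 250 bases before and 50 bases after the annotated start, of which 32851 were present and 8 of the 9 regulators had one. The NRF-1 motif (GCGCATGC, or GCATGCGC on the other strand, overlapping each other in part) occurred in 2.71% of all promoters and in those of Polrmt, Esrra and Tfb2m, the last one after the start. The GABP motif (CCGGAAGT) occurred in 3.89% of all promoters and in that of Tfam. The 3 matches before the start are shown, with the motif in capitals, because they place members of the set in front of other members. A match is a string of letters and not a measured site.
Polrmt, chr10:79746697-79746724, minus strand, 133 bases before the start: gagtatttctGCGCATGCtctcttgccg
Esrra, chr19:6921825-6921852, minus strand, 34 bases before the start: cccctgttttGCATGCGCaggccggccc
Tfam, chr10:71238074-71238101, minus strand, 47 bases before the start: ctgccgcggaCCGGAAGTccgggcttcc
The estrogen-related receptor element TCAAGGTCA, present in 0.423% of promoters, and the cAMP response element TGACGTCA, present in 1.79%, were found in 0 of the 8.

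The libraries were not alike in depth or make-up. Gene counts ran from 17168230 to 22660743 in total RNA, from 9586299 to 17095021 in WT AGO2-IP and from 5587611 to 6545652 in miR-379KO AGO2-IP. The ribosomal precursor Rn45s took 72.2 to 80.5% of gene counts in AGO2-IP, and without it and Lars2 the AGO2-IP libraries held 1115782 to 1875037 counts. Of the uniquely placed reads, 46.6 to 49.7% fell outside genes in WT AGO2-IP and 73.4 to 76.4% did in miR-379KO AGO2-IP. Mir379 itself was not counted in total RNA (0 in each library) and reached 0, 4, 1 and 0 in AGO2-IP (WT A, WT B, miR-379KO A, miR-379KO B), too few to check the labels. The mesangial and pericyte markers summed to between 11326 and 17903 counts per 1000000 (CPM) in total RNA. Acta2 (6882 to 10690 CPM) and Tagln (4017 to 6821 CPM) had the largest values. Des, Pdgfrb and Cspg4 lay between 70.0 and 790 CPM. Itga8 and Gata3 lay between 0.383 and 3.76 CPM, and Thy1 had 0 to 3 counts per library.

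Levels are given as CPM with TMM scaling factors, computed separately for each assay. Gabpa was the most abundant regulator in total RNA in CPM, with 57.5 ± 18.3 in WT and 50.6 ± 1.65 in miR-379KO MMC (mean ± SD, n = 2). Tfb2m, Tfam, Nrf1, Polrmt and Esrra lay between 20.3 and 31.8 CPM in the means of both genotypes. Tfb1m reached 4.73 ± 1.12 and 5.15 ± 0.148 CPM. Ppargc1b and Ppargc1a stayed under 1 CPM in the means of both genotypes.

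**Figure D1:**
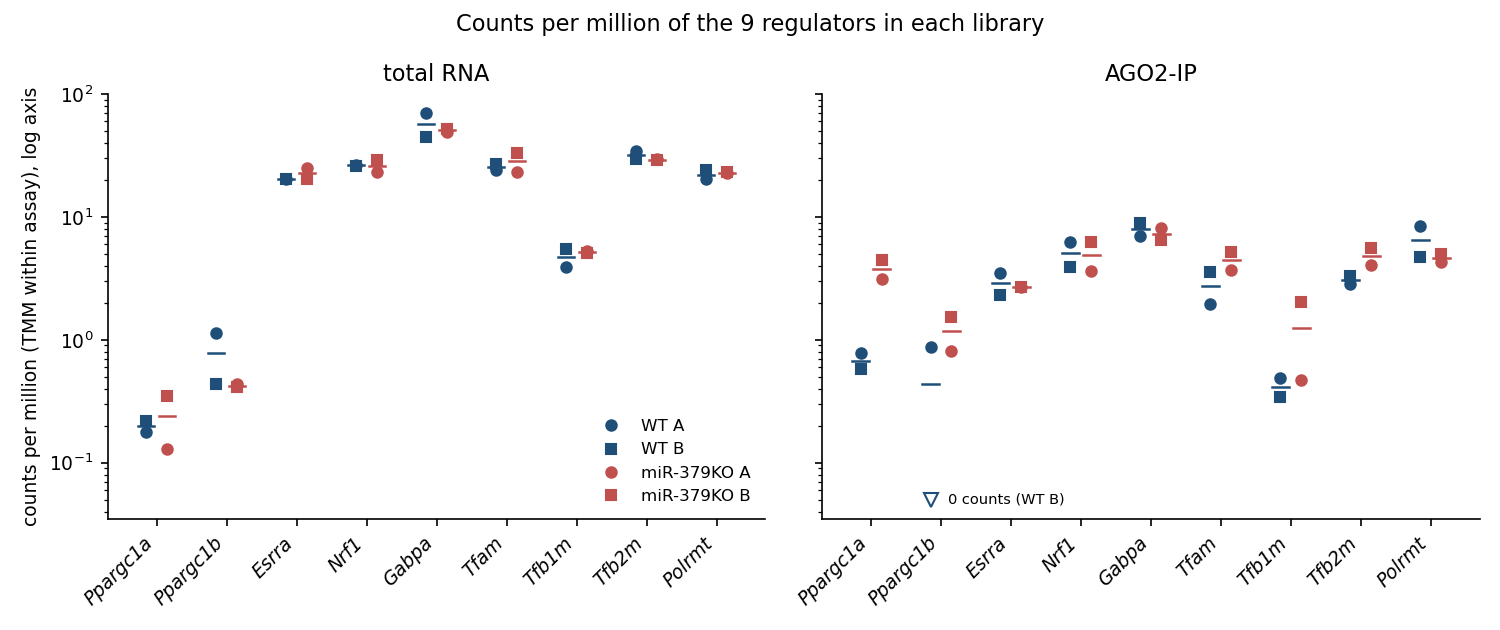
CPM (log axis) of the 9 regulators in every library, with total RNA on the left and AGO2-IP on the right, WT in blue and miR-379KO in red, circles for A, squares for B, short lines for group means and an open triangle for 0 counts. Apart from both coactivators and Tfb1m, the regulators lie above 20 CPM in all total RNA libraries, and in AGO2-IP both miR-379KO libraries of Ppargc1a lie above both WT libraries.

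Per length the order of the levels changed. Divided by exon length, total RNA of WT MMC held 12.9 ± 1.41 CPM per kb of Tfb2m, 11.5 ± 3.66 of Gabpa, 9.06 ± 0.0612 of Esrra, 6.52 ± 0.438 of Tfam, 5.89 ± 0.714 of Polrmt, 3.81 ± 0.0911 of Nrf1 and 3.42 ± 0.814 of Tfb1m. Gabpa differed from neither neighbour in this order, Tfb2m or Esrra, beyond its spread, and Tfam and Polrmt, and Nrf1 and Tfb1m, did not differ beyond theirs. The coactivators followed at 0.0754 ± 0.0472 (Ppargc1b) and 0.0302 ± 0.00429 CPM per kb (Ppargc1a). Among 20616 protein-coding genes, ordered by mean CPM per kb over the 4 total RNA libraries, Tfb2m stood above 78.0% and Ppargc1a above 35.5%.

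To ask whether loss of miR-379 changed the transcripts of the regulators, the genotypes were compared in total RNA with edgeR's quasi-likelihood test. Of the 9 regulators, 7 had enough counts to be tested, and 0 of the 7 passed a Benjamini-Hochberg adjusted p-value of 0.05. Across all genes 0 of 12321 passed (0%), the smallest adjusted p-value was 0.9997, and 91 genes reached an unadjusted p of 0.05. At the cutoff of the study's methods, which asks for a fold over 1.5 and an unadjusted p under 0.05, 0.682% of all genes and 0 of the 7 regulators were counted, and with DESeq2 0 regulators passed the adjusted threshold.

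The coactivators were close to the counting floor in total RNA. Ppargc1a, which encodes PGC-1α (chr5:51454249-51567725, minus strand, 6.591 kb of exon), had counts of 3 (WT A), 4 (WT B), 3 (miR-379KO A) and 6 (miR-379KO B). All 4 values lie at or a little over the 3 counts taken here as the floor, and the genotypes overlapped. In reads per 1000000 gene counts other than Rn45s and Lars2, the exact 95% interval ran from 0.0399 to 0.565 in WT A and from 0.134 to 0.793 in miR-379KO B, so a difference between the genotypes was not detectable at this depth. These intervals cover counting error only, since PCR copies were not marked with molecular identifiers.

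Ppargc1b, which encodes PGC-1β (chr18:61291445-61400412, minus strand, 10.407 kb of exon), had counts of 19 (WT A), 8 (WT B), 10 (miR-379KO A) and 7 (miR-379KO B). WT A was the highest of the 4, and in CPM both miR-379KO libraries (0.435 and 0.411) lay just under WT B (0.438). The gap between WT B and miR-379KO A was far smaller than the gap between WT A and WT B. It was not tested, since 1 of 4 libraries reached the 0.569 CPM that the filter on low counts required.

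The nuclear transcription factors showed values of both directions, all within the error. Esrra, which encodes ERRα (chr19:6910977-6921808, minus strand), had 20.2 and 20.4 CPM in WT A and B and 25.2 and 20.4 CPM in miR-379KO A and B. The miR-379KO B library was level with WT while miR-379KO A was higher, so the groups parted only by the A library. The log2 fold change was 0.17 ± 0.23 (SE, edgeR adjusted p-value 0.9997, 95% interval −0.38 to 0.72). Its exons overlap those of Trmt112 on the other strand, which the strand-specific counting kept apart.

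Nrf1, here nuclear respiratory factor 1 (chr6:30047988-30153458, plus strand), had 26.7 and 25.8 CPM in WT and 23.1 and 28.8 CPM in miR-379KO total RNA. Both WT values lay between those of miR-379KO. The log2 fold change was −0.02 (95% interval −0.57 to 0.53). Gabpa, which encodes the DNA-binding α subunit of GABP (chr16:84835124-84863779, plus strand), had 70.4 and 44.6 CPM in WT and 49.5 and 51.8 CPM in miR-379KO. WT A was the high sample and WT B the low one, and the log2 fold change of −0.18 had an interval of −0.85 to 0.48.

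The genes of the mitochondrial transcription machinery did not separate by genotype in total RNA either. Tfam (chr10:71225477-71238044, minus strand) had 24.3 and 26.8 CPM in WT and 23.4 and 33.5 CPM in miR-379KO, so the miR-379KO libraries lay on both sides of WT. Its log2 fold change was 0.15 ± 0.26 (SE, 95% interval −0.47 to 0.77). Tfb2m (chr1:179528054-179546276, minus strand) had 34.3 and 29.4 CPM in WT and 29.6 and 28.9 CPM in miR-379KO.

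For Tfb2m the log2 fold change was −0.12 (−0.64 to 0.40), with WT A apart from the other 3 libraries. Polrmt (chr10:79736125-79746581, minus strand) had 20.3 and 24.1 CPM in WT and 22.9 and 23.1 CPM in miR-379KO, which put both miR-379KO libraries between the WT ones. Its log2 fold change was 0.05 (−0.49 to 0.59). Tfb1m (chr17:3519250-3557755, minus strand) rested on 66 to 121 counts per library, the lowest in WT A and the highest in miR-379KO A, and its log2 fold change was 0.12 with the widest interval of the 7 (−0.70 to 0.94). The median log2 fold change of the 7 was 0.05, beside −0.01 over all genes.

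**Figure D2:**
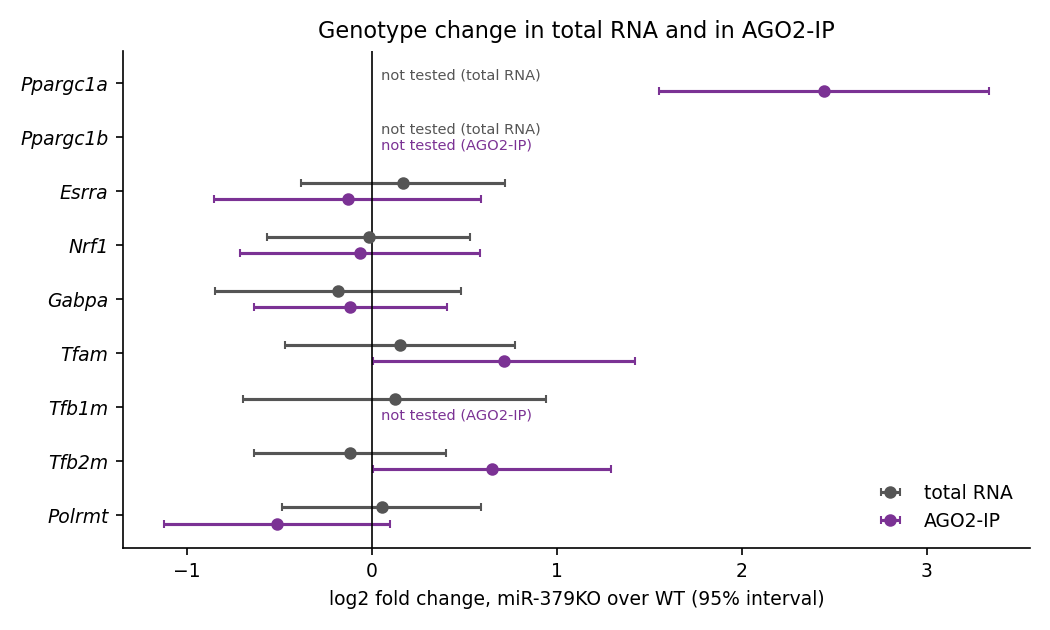
Log2 fold change of miR-379KO over WT for each regulator (points) with its 95% interval (bars), in total RNA (grey) and in AGO2-IP (purple). In total RNA all 7 intervals cover 0, and in AGO2-IP the interval of Ppargc1a runs from 1.55 to 3.33.

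Recovery with AGO2 was compared next, on the 4 AGO2-IP libraries. Again 7 of the 9 regulators were tested, and 1 of them, Ppargc1a, rose in the knockout, while 0 fell. Across all 13505 genes tested, 21.4% were called higher and 9.43% lower. At the study's cutoff 39.3% of all genes were counted, and 3 of the 7 regulators were, Ppargc1a, Tfam and Tfb2m, all higher. The share among the regulators was thus close to that among all genes. The median log2 fold change of the 7 was −0.07, beside −0.01 over all genes. In CPM the genotypes did not overlap for 3 of the 7 (Ppargc1a, Tfam and Tfb2m, all higher in miR-379KO), whereas the genotypes lay apart for 68.3% of all genes tested, 36.1% with miR-379KO higher and 32.2% with miR-379KO lower. Both untested regulators overlapped.

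The AGO2-IP counts of Ppargc1a were 8 (WT A), 5 (WT B), 27 (miR-379KO A) and 35 (miR-379KO B), or 0.780, 0.576, 3.15 and 4.45 CPM. Both miR-379KO libraries lay well above both WT libraries. The log2 fold change was 2.44 ± 0.43 (SE, edgeR adjusted p-value 0.000529, 95% interval 1.55 to 3.33), and with DESeq2 it was 2.44 with an adjusted p-value of 0.0145. On the scale of reads per 1000000 gene counts without Rn45s and Lars2, the exact intervals were 1.84 to 8.41 and 1.01 to 7.27 in WT and 13.6 to 30.0 and 21.8 to 43.6 in miR-379KO, and did not meet between genotypes. Ppargc1a passed the filter on low counts only through the miR-379KO libraries, since both reached 1.24 CPM and 0 of the WT libraries did. Without that filter its log2 fold change was 2.23 (adjusted p-value 3.44e-05, over 23572 genes).

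**Figure D3:**
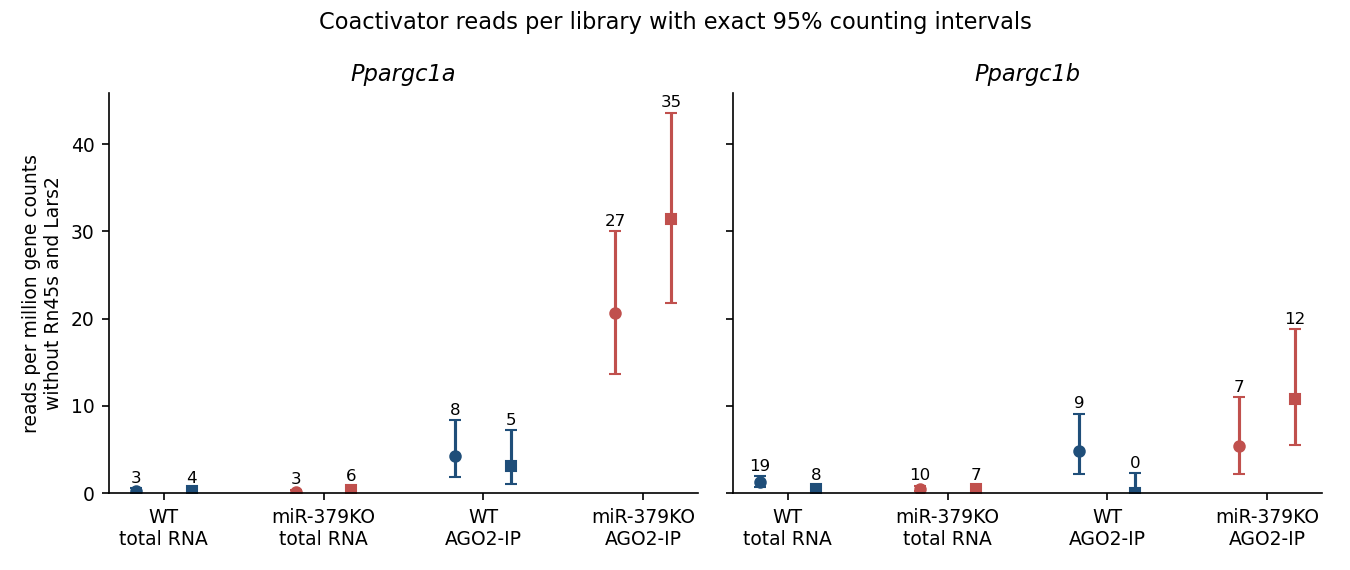
Reads per 1000000 gene counts without Rn45s and Lars2 (vertical axis) for Ppargc1a (left) and Ppargc1b (right) in each library, with exact 95% counting intervals as bars and the raw count above each, WT in blue and miR-379KO in red, circles for A and squares for B. Ppargc1a reaches 20.6 and 31.4 on this scale in miR-379KO AGO2-IP and stays under 0.4 in all total RNA libraries.

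This rise was shared by most genes that, like Ppargc1a, had almost no total RNA counts. Of 2160 tested genes with at most 6 counts in every total RNA library, the limit that Ppargc1a itself reached, 81.3% were called higher in the knockout, and their median change was 1.82 on the log2 scale. The value of Ppargc1a lay above 83.4% of them. Among the 500 protein-coding ones with an exon length within 1.5-fold of that of Ppargc1a, 79.2% were called higher at a median of 1.69, and Ppargc1a lay above 91.8%. Genes with counts as low as these can enter the test through only the libraries in which they are high, so these shares are descriptions.

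Across the range of total RNA levels, the AGO2-IP change went from positive to negative. Genes averaging more than 1000 total RNA counts had a median change of −0.45 (log2), and 26.1% of them were called lower. Gabpa belongs to that class, and its −0.12 lay above the upper quartile of −0.22. Tfam and Tfb2m belong to the genes with a mean over 500 to 1000 counts, in which the quartiles were −0.51 and 0.05, and both lay above the upper one. Of the genes with a mean over 100 to 500 counts, with quartiles of −0.30 and 0.45, Esrra and Nrf1 lay between the quartiles and Polrmt, at −0.51, lay below the lower one.

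**Figure D4:**
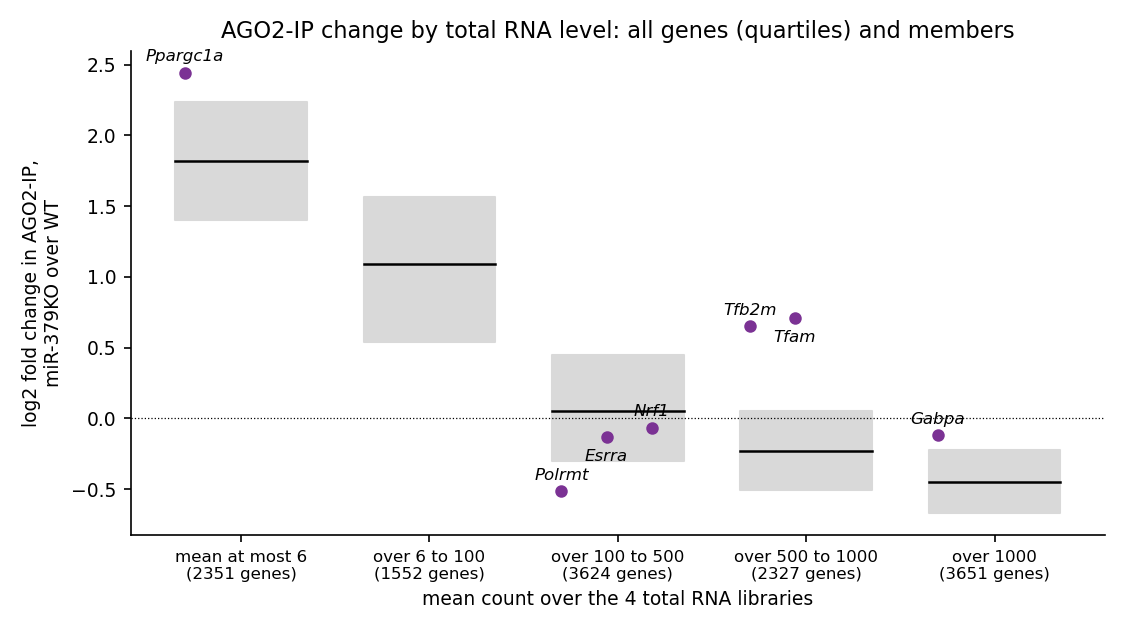
Log2 fold change in AGO2-IP, miR-379KO over WT (vertical axis), in 5 classes of mean total RNA count (horizontal axis), with all tested genes as grey boxes from lower to upper quartile, their median as a line and the 7 tested regulators as purple points. The medians go down from 1.82 to −0.45, and Ppargc1a, Tfam, Tfb2m and Gabpa lie above the box of their class, Polrmt below it and Esrra and Nrf1 within it. Gabpa averages only just over 1000 counts, and its value would fall within the box of the class below.

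Endothelial, leukocyte and tubular markers had higher sums in miR-379KO AGO2-IP, as Ppargc1a had, and the sums of podocyte markers overlapped between genotypes. The 5 endothelial markers summed to 2.30 to 4.10 CPM in WT and 6.66 to 8.14 CPM in miR-379KO AGO2-IP, and the 5 leukocyte markers to 4.14 to 4.39 and 10.98 to 14.1 CPM. The 5 tubular markers summed to 5.07 to 7.02 and 13.4 to 19.7 CPM, and the 8 mesangial and pericyte markers to 955 to 1210 and 466 to 756 CPM. Of the tubular sums, Lrp2 alone held 4.19 and 5.53 CPM in WT and 10.7 and 14.9 CPM in miR-379KO. The 4 podocyte markers that were tested in AGO2-IP (Nphs1, Podxl, Wt1 and Synpo) summed to 24.2 to 69.8 CPM in WT and 28.6 to 55.7 CPM in miR-379KO, and 1 of them, Nphs1, was called higher. In total RNA these 4 summed to 240.1 to 628 CPM in WT and 329 to 570 CPM in miR-379KO. In total RNA the endothelial sums were 0.383 to 0.537 CPM in WT and 0.0587 to 2.09 CPM in miR-379KO, with Pecam1 and Cdh5 at 0 in WT and Tek at 0 in miR-379KO. The leukocyte sums there were 1.49 to 3.28 and 1.23 to 2.30 CPM with Cd3e at 0 in both genotypes, and the tubular sums 1.97 to 46.0 and 8.69 to 26.2 CPM with Slc34a1 and Umod at 0 in both. Several of these markers, among them Nphs1, Tek, Kdr, Itgam and Umod, had at most 6 counts in every total RNA library. Of all tested genes within that limit, 81.3% were called higher in miR-379KO AGO2-IP. The sums are not a count of cells. The part of such cells, and of the larger share of reads outside genes in miR-379KO AGO2-IP, in the rise of Ppargc1a was not tested.

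The genes whose pattern over the 8 libraries was most like that of Ppargc1a were of the same kind. By Pearson's r of log2(CPM + 1) among 11956 genes, these were Adgrl4, Samd3, Dgkb, Kcna4 and Kcna2, each with r of 0.999. Samd3 and Kcna2 had 0 counts in all 4 total RNA libraries and Kcna4 had 2 to 6. In AGO2-IP the 5 had 4 to 9 counts in WT and 18 to 54 in miR-379KO. The 8 libraries fall into 2 assays and share their depth differences, so r is given only as the measure of likeness.

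The AGO2-IP counts of Ppargc1b were 9 (WT A), 0 (WT B), 7 (miR-379KO A) and 12 (miR-379KO B). By the floor of 3 counts, the 0 in WT B allows a share of up to 1.87 reads per 1000000 gene counts without Rn45s and Lars2, and the exact 95% interval reaches 2.30, whereas WT A stood at 4.80 and miR-379KO A at 5.35. The groups overlapped in CPM, and the gene did not pass the filter. When only 1 WT library was kept, the result for Ppargc1b turned on which one it was, and it was called without WT A, which left the library with 0 counts.

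The nuclear factors did not pass the test in AGO2-IP. Esrra had 3.51 and 2.30 CPM in WT and 2.69 and 2.67 CPM in miR-379KO AGO2-IP, so both miR-379KO values lay between those of WT (log2 fold change −0.13, 95% interval −0.85 to 0.59). Nrf1 had 6.24 and 3.91 CPM in WT and 3.62 and 6.23 CPM in miR-379KO, nearly mirrored between the letters. Its log2 fold change was −0.07 (−0.71 to 0.58). Gabpa had the highest mean CPM of the regulators in AGO2-IP too, with 7.02 and 8.98 CPM in WT and 8.18 and 6.49 CPM in miR-379KO. In WT A, Polrmt was higher than Gabpa, at 8.39 CPM. With TMM factors restricted to genes seen in total RNA, the values of these 3 genes turned to small positive ones, 0.075, 0.15 and 0.091, still under the median of all genes, which that scaling moved from −0.01 to 0.20.

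Of the mitochondrial transcription machinery, Tfam and Tfb2m had higher means in miR-379KO than in WT AGO2-IP and did not pass the adjusted threshold. Tfam had 1.95 and 3.57 CPM in WT and 3.74 and 5.22 CPM in miR-379KO AGO2-IP. The highest WT and lowest miR-379KO values lay next to each other, and the log2 fold change of 0.71 ± 0.34 (SE) had an unadjusted p-value of 0.0493 and an adjusted one of 0.116 in edgeR. The adjusted p-value ranged from 0.0409 to 0.634 over the alternatives, the lowest without WT B.

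Tfb2m had 2.83 and 3.34 CPM in WT and 4.09 and 5.60 CPM in miR-379KO AGO2-IP, a wider gap between the groups than for Tfam. Its log2 fold change was 0.65 ± 0.31 (SE, edgeR adjusted p-value 0.114, range 0.0449 to 0.592 over the alternatives), and it passed with the TMM factors restricted to genes seen in total RNA. Both of these genes rest on 20 to 44 counts per AGO2-IP library.

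Polrmt, which holds a miR-379-5p seed match in the 3′-UTR, had 8.39 and 4.72 CPM in WT and 4.32 and 4.96 CPM in miR-379KO AGO2-IP. WT A was high and the other 3 libraries were alike, and WT B lay between the miR-379KO libraries. The log2 fold change was −0.51 ± 0.30 (SE, edgeR adjusted p-value 0.190, 95% interval −1.12 to 0.10). Without WT B it was called lower (adjusted p-value 0.0343), and without WT A its log2 fold change was −0.09. Tfb1m had 3 to 5 counts in 3 of the AGO2-IP libraries and 16 in miR-379KO B, which stood alone, and was not tested.

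Whether the AGO2-IP change of a regulator differed from its total RNA change was tested in 1 model of the 8 libraries by the interaction of genotype and assay, which all 9 entered. Of the regulators 0 passed, as did 0 of all 17429 genes (0%), with a smallest adjusted p-value of 0.211 and 2733 genes at an unadjusted p of 0.05 or less. With DESeq2, 114 genes and 0 regulators passed. At the study's cutoff 15.7% of all genes were counted and 1 of the 9 regulators, Ppargc1a. For Ppargc1a the difference between the log2 changes was 2.06 ± 0.98 (SE, 95% interval 0.0043 to 4.13, edgeR adjusted p-value 0.317). The low counts in total RNA leave this interval wide, so its rise in AGO2-IP is not shown to exceed a change in total RNA. Ppargc1a entered this model only through the 2 miR-379KO AGO2-IP libraries, so the direction of its value was tied to the filter.

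For the other regulators the interaction ranged from −0.76 ± 0.42 for Polrmt to 1.95 ± 1.19 for Ppargc1b (SE). Between them, Tfb1m stood at 1.22 ± 0.85, Tfb2m at 0.55 ± 0.38, Tfam at 0.35 ± 0.46, Gabpa at −0.17 ± 0.37, Nrf1 at −0.25 ± 0.43 and Esrra at −0.51 ± 0.44. Each of these 8 intervals covered 0.

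Within each genotype, AGO2-IP was also set against total RNA, to describe how far each regulator was recovered with AGO2. The assay and the library protocol changed together and cannot be told apart, and both comparisons come from the same fit of 8 libraries. In WT, 2 of 9 regulators were called higher in AGO2-IP, against 38.7% of all genes, and 1 of 9 lower, against 12.8%. In miR-379KO, 2 of 9 were called higher, against 43.9%, and 1 of 9 lower, against 25.9%. The medians over the 9 were −0.30 in WT and −0.12 in miR-379KO, beside 0.49 and 0.47 over all genes.

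Ppargc1a stood out most from its total RNA among the 9, at a log2 ratio of AGO2-IP to total RNA of 4.18 ± 0.71 in WT (SE, edgeR adjusted p-value 0.000184) and 6.25 ± 0.64 in miR-379KO (6.87e-07). Both calls rest on totals of 7 and 9 counts in total RNA. Ppargc1a passed the filter of this fit only through the 2 miR-379KO AGO2-IP libraries. The direction of its miR-379KO call was thus tied to the filter. Ratios of this size were not particular to Ppargc1a. In WT, the endothelial, leukocyte and tubular markers had median log2 ratios of 6.85, 6.18 and 3.55. In miR-379KO these medians were 4.89, 6.77 and 5.47. Ppargc1b was higher in miR-379KO AGO2-IP than in miR-379KO total RNA (3.70 ± 0.84, adjusted p-value 0.000875). In WT its value was 1.75 ± 0.91 (adjusted p-value 0.117). Ppargc1b reached the filter's 0.584 CPM in 1 WT library and, within miR-379KO, only in the 2 AGO2-IP libraries.

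The well-counted regulators lay much closer to their total RNA. Polrmt was higher in WT AGO2-IP than in WT total RNA (0.73 ± 0.29, edgeR adjusted p-value 0.0435) and level in miR-379KO (−0.03 ± 0.30), and the WT call was lost with RLE factors, with DESeq2 and when any library other than WT total RNA B was left out (adjusted p-value 0.954 without WT AGO2-IP A). Tfb2m was lower in WT AGO2-IP (−0.87 ± 0.28, adjusted p-value 0.0143) and had −0.32 ± 0.27 in miR-379KO. Esrra was lower in AGO2-IP of miR-379KO MMC (−0.81 ± 0.31, edgeR adjusted p-value 0.0291), a call that was also lost with RLE factors and with DESeq2 and without miR-379KO total RNA A or either miR-379KO AGO2-IP library, and had −0.30 ± 0.30 in WT.

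Not past the threshold in either genotype were Gabpa (−0.33 in WT and −0.50 in miR-379KO), Nrf1 (0.13 and −0.12), Tfam (−0.73 and −0.38) and Tfb1m (−1.01 and 0.22). Scaled to gene counts without Rn45s and Lars2, the ratio of AGO2-IP to total RNA was 16.99 in WT and 103 in miR-379KO for Ppargc1a and 2.81 and 18.02 for Ppargc1b. On that scale it lay between 0.438 (Tfb1m) and 1.47 (Polrmt) in WT and between 0.754 (Esrra) and 1.60 (Tfb1m) in miR-379KO for the other 7.

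Genes that work with the regulators were examined by lists. In total RNA 0 genes of any list passed. The counts called in AGO2-IP below stand beside 21.4% of all genes called higher and 9.43% called lower, and with so few genes in a list they are descriptions. In AGO2-IP, 18 partners in nuclear transcription were tested, of which 3 rose and 2 fell with loss of miR-379, close to those shares. Those with the smallest p-values were Mef2c, a MADS-box factor (log2 fold change 1.72), Esrrg, which encodes the receptor ERRγ (1.95), and Ppara, a nuclear receptor for fatty acid oxidation (1.59). All 3 rose, and each had 0 to 7 counts in the total RNA libraries, as Ppargc1a did. Like Ppargc1a, these 3 passed the filter on low counts only through the miR-379KO libraries, since 0 of the WT libraries reached 1.24 CPM, so the direction of their calls was tied to the filter. In total RNA the smallest p-value belonged to Gabpb2, which encodes a partner subunit of GABPα (−0.35, edgeR adjusted p-value 0.9997).

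Of 16 upstream modulators of PGC-1α, 3 were called higher and 1 lower in AGO2-IP, again near the shares of 21.4% and 9.43% over all genes. Camk4, a calcium-dependent kinase gene (1.57), and Nampt, of the NAD salvage pathway (1.22), rose, and Nrip1, a corepressor gene (−0.94), fell. Camk4 had 71 to 137 counts and Nampt 388 to 476 counts in the total RNA libraries, so these calls were not limited to genes without total RNA. Camk4 falls at the top of the class averaging over 6 to 100 counts, of which 45.2% were called higher. That class had a median of 1.09 and an upper quartile of 1.57. In the class over 100 to 500 counts, which holds Nampt, 6.68% were called higher. In total RNA Prkaa2, which encodes a catalytic subunit of AMPK, had the smallest p-value (−0.54, edgeR adjusted p-value 0.9997).

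The genes that act downstream were examined in the same way. The shares called were under those of all genes (21.4% higher, 9.43% lower) in each of these 3 lists. Of 14 genes of mitochondrial DNA replication and nucleotide supply, 1 was called higher, Primpol, a primase-polymerase gene (1.29), and 1 lower, Polg, which encodes the replicative polymerase (−0.79), while Rrm2b had 0.69 (adjusted p-value 0.0609). Of 16 genes of mitochondrial transcription and RNA processing 1 was called higher, Fastkd1 (0.97), with Fastkd3 at −1.06 and Fastk at −0.53, neither of which passed. All 13 genes of the import machinery and other nuclear targets had negative values in AGO2-IP, with a median of −0.38, and 1 was called lower, Tomm40, the channel of the outer membrane (−0.83). Negative values made up 50.6% of all genes tested but 90.5% of those averaging over 1000 total RNA counts, whose median was −0.45, and 10 of the 13 belong to that class, so the import list lay at the background of its level. Hspa9 and Tomm22 had −0.67 and −0.71 with adjusted p-values of 0.0507 and 0.0524 in edgeR. The smallest p-values of these lists in total RNA belonged to Tk2 (0.27), Hsd17b10 (0.39) and Timm17a (0.24), and the import list had a median of 0.17 there, with 10 of 13 values positive.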

How the data were processed

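Total RNA and AGO2-IP libraries of WT and miR-379KO MMC were analysed as 4 groups of 2. The authors deposited raw gene counts, 1 list per sample, from reads aligned to mm10 with TopHat (with Bowtie2 2.1.0.1, per the submitters' processing notes) and counted per RefSeq gene with HTSeq 0.6.0, reverse-stranded. Total RNA came from a stranded poly(A) kit, whereas AGO2-IP RNA came from cross-linked, sonicated cells and a different library preparation (small RNA-seq for RNA extracted without ligation), so levels are not comparable between the assays as absolute amounts. Rows that name no gene held 19.8 to 23.8% of listed reads in total RNA and 73.1 to 88.9% in AGO2-IP and were left out of library sizes and tests. Depth without Rn45s and Lars2 was 15524220 to 21343458 counts in total RNA and 1115782 to 1875037 in AGO2-IP, and counting intervals are exact Clopper-Pearson.

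Of the 24639 entries 99.3% matched the RefSeq annotation of GRCm38.p6, the patch release of mm10, which gave coordinates, exon lengths and 3′-UTRs. Counts were tested with edgeR 4.0.16 (R 4.3.3): TMM factors, filterByExpr with a minimum count of 10, robust quasi-likelihood F tests and Benjamini-Hochberg adjustment over all genes tested. Standard errors were derived from the F statistics. The genotype comparisons used the 4 libraries of each assay, and the interaction and the comparisons between assays used all 8. Script steps were tested on simulated counts. Replicates differed by more than sampling noise in every group (chi-square per degree of freedom 3.51 to 119).

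Alternatives were DESeq2 1.42.0, RLE factors, other count filters, TMM factors from genes with a mean of at least 50 total RNA counts, library sizes without Rn45s and Lars2, 1 fit of all libraries, the replicate letter as a block, omission of each replicate and the study's cutoff. The crossed pairing was added after seeing the data.

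Genes named were the 9 regulators in every comparison, Mir379, the 5 genes most like Ppargc1a with a mean of at least 10 AGO2-IP counts, and from each other list the 3 smallest p-values in AGO2-IP and the smallest in total RNA. The regulators and lists were chosen with earlier results of these data known. Mitochondrially encoded genes were not analysed here, and 1 gene of the RNA processing list was not found by symbol. One marker gene is not reported here.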

Additional observations from a re-analysis of the deposited data

How the results depend on the processing

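The rise of Ppargc1a in AGO2-IP kept its direction in all 11 alternatives that could test it. Where both replicates were kept it passed in edgeR and DESeq2, with an adjusted p-value between 3.44e-05 and 0.0445. Ppargc1a was not tested at a mean of at least 50 counts. In the main fit Ppargc1a passed the filter on low counts only through the miR-379KO libraries. Of these alternatives only the fit without a filter did not rest on such a filter. Of tested genes with at most 6 counts in every total RNA library, 81.3% were called higher in the main fit too. In total RNA 0 regulators passed under any alternative. The AGO2-IP depth of at most 1875037 counts without Rn45s and Lars2 limits Tfb1m and both coactivators most. The cause of the changes below was not tested, except where a filter removes the gene.

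Counts of regulators and genes called moved as follows. In AGO2-IP 1 regulator was called, against 3 at the study's cutoff, 2 with TMM factors restricted to genes seen in total RNA and 0 at a mean of at least 50 counts, which left 2 regulators to test. Leaving out a replicate gave 1 to 3. Across all genes the 4158 AGO2-IP calls became 802 with DESeq2, 274 at a mean of 50 counts, 688 with all 8 libraries in 1 fit, and 918 (without miR-379KO B) to 3331 when a replicate was left out. The share of calls that were higher went from 69.4% to 88.0% with TMM factors restricted to genes seen in total RNA, 85.4% at a mean of 50 counts, 54.1% without a filter and 54.8% with all 8 libraries. The interaction counted 1 regulator at the study's cutoff, and its 0 calls over all genes became 114 with DESeq2, 2 at a mean of 50 counts, 2 with the TMM factors named above and 0 to 1547 when a replicate was left out, the latter without WT total RNA B. For AGO2-IP against total RNA, a mean of 50 counts gave 2881 calls in WT, and 4716 calls with 0 regulators in miR-379KO, and leaving out a replicate gave 5655 to 10531 in WT.

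With the replicate letter as a block, the AGO2-IP comparison gave 3853 calls and 1 regulator, the interaction 8 calls, and Tfam passed in WT AGO2-IP against total RNA (adjusted p-value 0.0309). No other call of a regulator changed with the block. Deviations of same-letter samples correlated at −0.11 (Pearson) and 0.17 (Spearman) over 10763 genes in total RNA and at 0.04 in AGO2-IP. These values were weak, and with only 2 letters they cannot decide whether the letters pair the genotypes. Between total RNA and AGO2-IP, over 4856 genes, such deviations correlated at 0.32 within WT and 0.26 within miR-379KO. Across the genotypes they correlated at −0.12 (WT total RNA) and 0.22 (miR-379KO total RNA). With 2 letters per genotype and no label for what a letter shares, the fit without the block was kept. The crossed pairing, added after seeing the data, gave 1 call in total RNA and 0 regulators.

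Values of regulators changed sign as follows. In total RNA Nrf1 had 0.044 with all 8 libraries. In AGO2-IP Gabpa had 0.25 at a mean of 50 counts, and with the TMM factors restricted to genes seen in total RNA Esrra, Nrf1 and Gabpa had 0.075, 0.15 and 0.091. In the interaction Nrf1 and Gabpa had 0.013 and 0.10 with DESeq2, 0.0095 and 0.10 with RLE factors, 0.16 and 0.25 at a mean of 50 counts and 0.13 and 0.22 with those TMM factors. For AGO2-IP against total RNA in miR-379KO, Nrf1 and Polrmt had 0.066 and 0.16 with DESeq2 and 0.065 and 0.16 with RLE factors. There a mean of 50 counts gave 0.41 (Nrf1), 0.022 (Gabpa), 0.15 (Tfam), 0.21 (Tfb2m) and 0.50 (Polrmt), and the TMM factors gave 0.36 (Nrf1), 0.089 (Tfam), 0.16 (Tfb2m) and 0.45 (Polrmt).

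Leaving out 1 replicate at a time gave these ranges where the sign changed. In total RNA they were −0.18 to 0.16 (Nrf1), −0.48 to 0.19 (Gabpa), −0.12 to 0.41 (Tfam), −0.10 to 0.39 (Tfb1m) and −0.062 to 0.18 (Polrmt). In AGO2-IP they were −0.43 to 0.15 (Esrra), −0.51 to 0.25 (Nrf1) and −0.37 to 0.022 (Gabpa). In the interaction they were −0.70 to 0.039 (Esrra), −0.43 to 0.34 (Nrf1) and −0.43 to 0.31 (Gabpa). For AGO2-IP against total RNA they were −6.17 to 2.41 (Ppargc1b) and −0.48 to 0.19 (Nrf1) in WT, and −0.54 to 0.22 (Nrf1), −0.12 to 0.062 (Polrmt) and −1.16 to 0.93 (Tfb1m) in miR-379KO. The lowest value of Ppargc1b comes from a WT arm left with 0 counts, so it is no bound. A lone library was assumed to vary like the other groups.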
